A study of Mus musculus with 12 samples.

Results

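Ischemia-reperfusion injury (IRI) was compared with sham surgery in the kidneys labelled wild type (WT), which took 6 of the 12 libraries of the series: WT sham 1, 2 and 3 and WT IRI 13, 24 and 49. Deposited transcript values were summed per gene, and the 12064 of 13465 genes with at least 1 FPKM (fragments scaled by transcript length and by library size) in 3 of these 6 libraries were examined. Bulk RNA was sequenced from renal cortex. The series crosses this injury with deletion of Gpx3, a secreted glutathione peroxidase, in the renal tubular epithelium (CKO), and the 6 CKO libraries enter below only through the shared estimate of spread, the check of the targeted gene and the comparison of injury changes between genotypes. WT sham kidneys carried no stated deletion and had sham surgery; WT IRI kidneys carried none either and had 30 min of ischemia on both sides followed by 48 h of reperfusion. Strain, sex, age and the Cre driver were not given in the sources used here, nor whether the WT mice carried floxed alleles. The labels give kidney as the tissue, while their extraction protocol speaks of joint capsule. Of 6 joint tissue markers only Fmod reached the level for testing, at 2.26, 2.51 and 1.97 FPKM in sham and 0.834, 0.487 and 1.72 FPKM after injury, whereas the proximal tubule phosphate transporter Slc34a1 stood at 1786, 1650.5 and 1753 FPKM in sham. Nothing states that each library came from a separate animal, so p-values measure only the spread between these libraries.

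The proximal tubule reabsorbs most of the filtered solute and protein, burns fatty acids rather than glucose, and is the nephron segment most exposed to ischemia, above all its straight part in the outer medulla. Surviving tubular cells are known to flatten, switch on injury markers such as kidney injury molecule 1, re-enter the cell cycle and replace lost neighbours, with differentiated functions returning later. Leukocytes and fibroblasts gather around the injured tubules over the same period.

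Throughout, values in sham are in the order WT sham 1, 2 and 3, and values after injury in the order WT IRI 13, 24 and 49. Changes are limma estimates of IRI minus sham on the log2(FPKM + 1) scale, where changes of low genes come out too small, and p-values are adjusted by Benjamini-Hochberg over all 12064 genes. A gene is said to have risen or fallen where this adjusted p was under 0.05. Tests were two-sided. The sums over genes ran from 391002 to 401678 FPKM per library, deposited transcripts without a gene match included, and read depth could not be recovered.

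The 3 injured libraries were less alike than the 3 sham libraries. Across genes, correlations of log2 values were 0.983 to 0.984 within sham, 0.918 to 0.943 within IRI and 0.822 to 0.923 between the groups, and the median SD per gene was 0.10 in sham and 0.27 after injury. On the first principal component, which held 71.7% of the variance, the sham libraries lay at -44.4, -45.6 and -45.7 and the injured ones at 68.4, 49.2 and 18.2. WT IRI 49 therefore lay nearest to sham. Genes that rose did so by medians of 1.05, 0.82 and 0.64 (log2, against the sham mean) in WT IRI 13, 24 and 49, and genes that fell shifted by medians of -1.16, -0.94 and -0.54. Transcripts of the mitochondrial genome made up 9.46%, 10.21% and 9.76% of the summed values in sham, and 3.94%, 10.01% and 7.37% after injury, so WT IRI 13 held the lowest share.

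Injury raised 3072 genes, 25.5% of those tested, and lowered 1479, or 12.3%. Rises over 2 on the log2 scale were counted for 266 genes and falls over 2 for 116, and rises over 4 for 17 genes and falls over 4 for 9. All 3 injured libraries lay above all 3 sham libraries for 4282 genes and below them for 2392, together 55.3% of the genes tested. Rises made up 67.5% of the calls, but 50.4% after quantile normalization (2215 raised, 2181 lowered) and 56.8% after trimmed-mean scaling (2520 and 1917). The median change over all genes was 0.12 as deposited and -0.03 and 0.04 under these scalings. Leaving out WT sham 1, 2 or 3 gave 2244, 2185 or 2183 genes raised and 972, 920 or 929 lowered. Leaving out WT IRI 13, 24 or 49 gave 2395, 2668 or 3248 raised and 992, 1152 or 1907 lowered. Counts of gene lists with a library left out, given below, stand beside these counts over all genes.

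The 10 largest rises that passed the test without overlap between the groups were led by Havcr1, which encodes kidney injury molecule 1. It measured 1.1, 0.669 and 3.36 FPKM in sham and 370.1, 348 and 276 FPKM after injury (log2 change 7.05, SE 0.49, adjusted p = 6.54e-06). The keratin gene Krt20, of simple epithelia, went from 0.246, 0.159 and 0.658 to 158, 103 and 33.02 FPKM (log2 change 5.95, SE 0.59, adjusted p = 8.45e-05). Lcn2, the iron-siderophore binding lipocalin NGAL, went from 5.13, 6.45 and 4.05 to 361, 465 and 147 FPKM (log2 change 5.57, SE 0.55, adjusted p = 7.74e-05). In each of these 3 genes WT IRI 49 was the lowest injured library and still stood far above every sham library. The others were Birc5, the mitotic survivin (5.07), S100a6, a calcium-binding protein (4.94), Sprr1a and Sprr2f, small proline-rich envelope proteins (4.62 and 4.40), the mitotic cyclin Ccnb2 (4.55), the anaphase activator Cdc20 (4.54) and the aldo-keto reductase Akr1b8 (4.54).

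The 10 largest falls were led by Slc22a7, an organic anion transporter, which measured 167, 198 and 172 FPKM in sham and 1.83, 0.827 and 13.4 FPKM after injury (log2 change -5.41, SE 1.09, adjusted p = 0.00385). Hdc, which makes histamine from histidine, went from 128, 85.5 and 143 to 1.93, 0.948 and 11.8 FPKM (log2 change -4.81, SE 0.90, adjusted p = 0.00283), and the lipid desaturase Scd1 from 141, 202 and 150.0 to 4.65, 4.47 and 26.2 FPKM (log2 change -4.11, SE 0.63, adjusted p = 0.00105). WT IRI 49 kept the most of each, by several fold over WT IRI 13 and 24, without reaching the sham libraries. Cyp2a4 (-4.46), the organic anion transporter Slc22a19 (-4.41), the hydroxysteroid dehydrogenase Akr1c14 (-4.20) and the lipid transfer protein Sec14l3 (-3.95) fell as well. Slc7a12, an amino acid transporter, showed the widest spread, with 1.38, 1.43 and 86.8 FPKM after injury against 164, 214 and 171 in sham, and its fall of -4.52 did not pass without WT IRI 13 (adjusted p = 0.0668) or WT IRI 24 (0.0584). The meprin subunit Mep1b (-4.18) did not pass without WT IRI 13 (0.0688), WT IRI 24 (0.0635) or WT sham 2 (0.0524), nor Akr1c18 (-4.16) without WT IRI 13 (0.0546) or WT IRI 24 (0.0525). A list of genes known to be higher in female mouse kidney had a median change of similar size (-4.31), and sex was not stated.

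**Figure D1:**
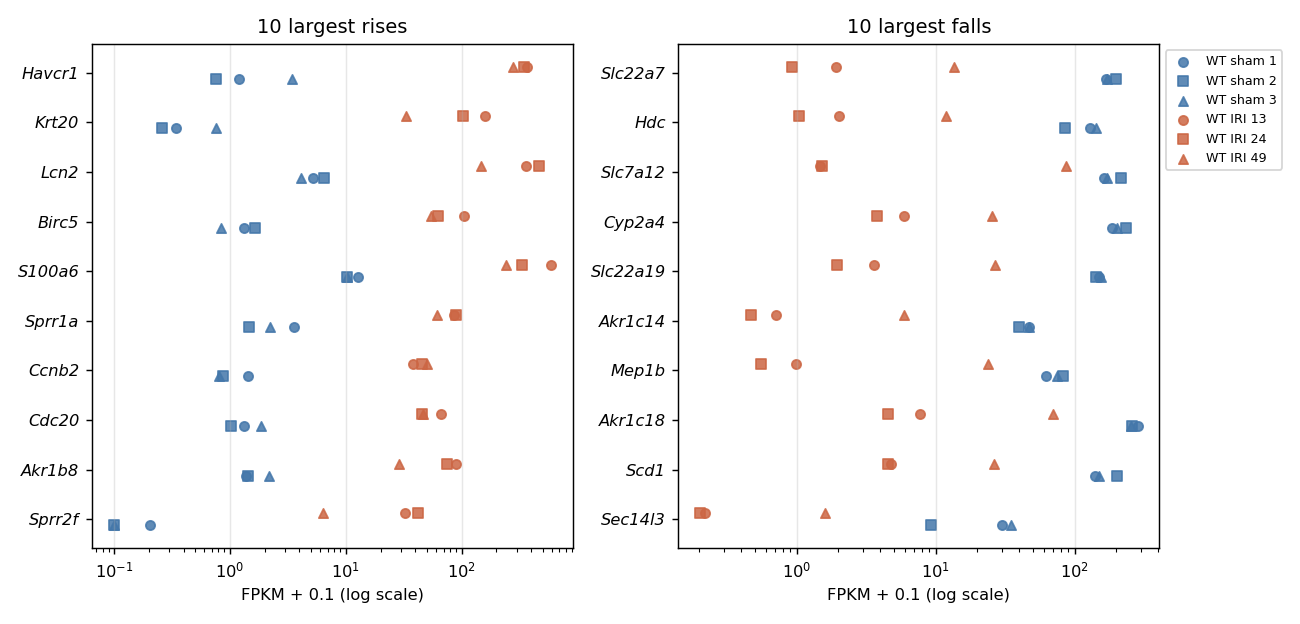
FPKM + 0.1 on a log axis for the 10 largest rises (left) and the 10 largest falls (right), with 1 point per library (blue, sham; orange, IRI; marker shape, library). The injured libraries lie on one side of the sham libraries in each gene, and WT IRI 49 (orange triangles) lies nearest to sham in all 10 falls.

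Gene lists by cell type and pathway were then counted against these background shares of 25.5% raised and 12.3% lowered and the median change of 0.12 over all genes. The lists and their members were chosen with earlier results of these data known, so the counts are descriptions and not independent tests. Among lists with at least 10 tested members, those with the largest share raised were mitosis, DNA replication, tubular injury and cytosolic ribosomal proteins, and those with the largest share lowered were early proximal tubule markers, amino acid catabolism and distal convoluted tubule markers. The cell type lists hold genes known as markers of each type, so that fewer cells of a type and less RNA per cell cannot be told apart in these bulk samples.

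**Figure D2:**
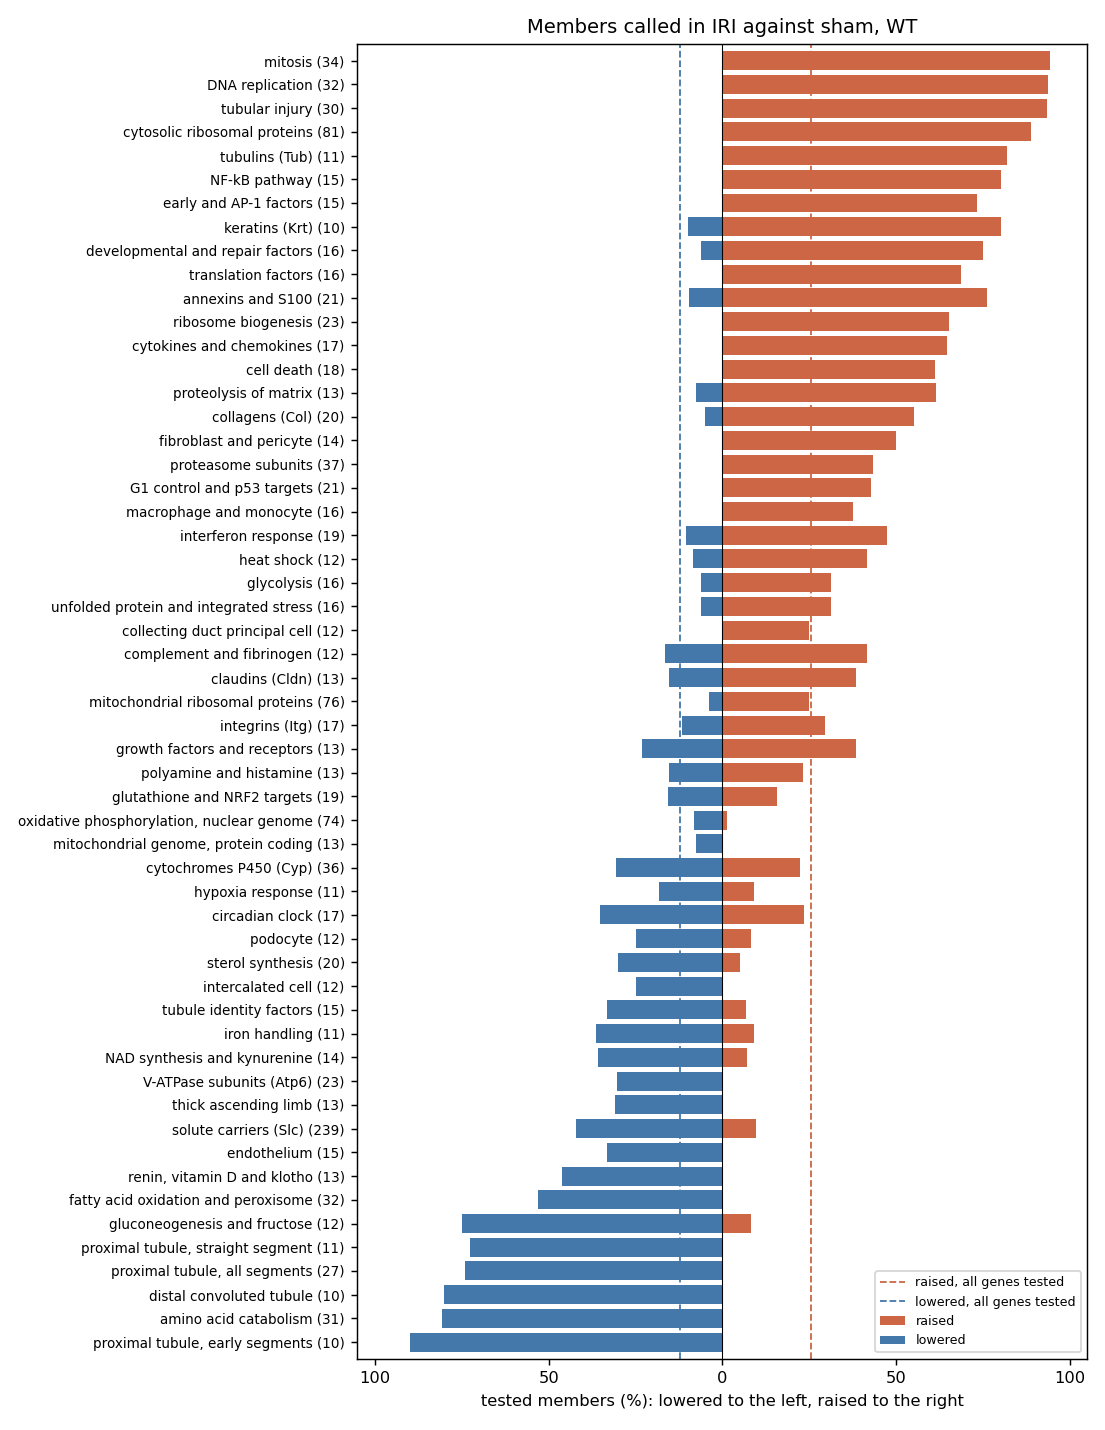
Percentage of tested members raised (orange, to the right) and lowered (blue, to the left) after IRI in each gene list with at least 10 tested members, with the number tested in parentheses; dashed lines mark the shares over all 12064 genes (25.5% and 12.3%). Mitosis, DNA replication and tubular injury stand at the top, and proximal tubule and amino acid catabolism lists at the bottom.

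Tubular injury markers rose together. Of 30 tested members 28 rose and none fell, with a median change of 2.51. Their summed level was 1849.7, 1785 and 1839.6 FPKM in sham and 10152, 10449.9 and 6721 FPKM after injury. Spp1, which encodes the secreted phosphoprotein osteopontin, measured 1034, 945 and 1015 FPKM in sham and 4259, 4609.5 and 3442 FPKM after injury (log2 change 2.03, SE 0.27, adjusted p = 0.000559), and became the most abundant nuclear gene of the injured libraries by mean level. Clu, the secreted chaperone clusterin, went from 262, 258 and 262 to 1236, 1661 and 718 FPKM (log2 change 2.12, SE 0.45, adjusted p = 0.00498). Both were lowest in WT IRI 49 among the injured libraries, with no overlap with sham. The members that did not pass were Itgb6, an integrin subunit, at 31.004, 37.2 and 28.5 and 20.02, 27.4 and 31.6 FPKM, and Fgb, a fibrinogen chain, at 1.17, 0.839 and 1.05 and 5.14, 4.22 and 4.17 FPKM (adjusted p = 0.0847, or 0.00157 with the 6 WT libraries fitted alone).

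Cytoskeletal genes of simple and stratified epithelia were among the strongest rises. Of 10 keratins tested, 8 rose and 1 fell (Krt80, -0.65; adjusted p = 0.0515 when WT sham 2 was omitted), with a median change of 2.62. Krt8 and its partner Krt18, the keratin pair of simple epithelia, went from 55.9, 58.5 and 56.1 to 435, 388 and 228 FPKM (log2 change 2.55, SE 0.25, adjusted p = 8.48e-05) and from 15.04, 15.1 and 13.8 to 271, 225 and 109 FPKM (log2 change 3.60, SE 0.32, adjusted p = 3.08e-05). Krt19 went from 1.22, 1.19 and 1.04 to 79.5, 63.97 and 10.8 FPKM (log2 change 4.20, SE 0.59, adjusted p = 0.000661), with WT IRI 49 several fold below WT IRI 13 and 24. Annexins and S100 proteins, which bind calcium, rose in 16 of 21 members and fell in 2. Anxa2 stood out in WT IRI 13, with 559, 117 and 86.1 FPKM after injury against 12.7, 14.5 and 14.4 in sham (log2 change 3.60, SE 0.58, adjusted p = 0.00129). S100a11 was more even, with 213, 229 and 222 FPKM in sham and 775, 1059 and 732 FPKM after injury (log2 change 1.93, SE 0.22, adjusted p = 0.000228). The falls were Anxa11 (-1.27) and S100g, the calcium carrier calbindin-D9k (-1.03), and S100g did not pass if WT IRI 13 (adjusted p = 0.0653), WT IRI 24 (0.0738), WT sham 1 (0.0646) or WT sham 3 (0.0571) was left out. Of 13 tight junction claudins tested 5 rose and 2 fell, and 1 fell without any 1 sham library. Their summed level overlapped, at 498, 506 and 511 FPKM in sham and 468, 536 and 525 FPKM after injury. The rises included Cldn4 (14.7, 11.5 and 12.5 to 114, 102 and 37.6 FPKM, log2 change 2.48, SE 0.41, adjusted p = 0.00153) and Cldn1 (2.13).

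Transcription factors of the injury response moved with different strength. Of 15 tested early and AP-1 factors 11 rose and none fell, with a median of 1.41. Maff, a small Maf protein, went from 1.24, 1.61 and 1.92 to 16.4, 12.2 and 6.08 FPKM (log2 change 2.19, SE 0.33, adjusted p = 0.000893), and Junb from 16.5, 17.6 and 15.6 to 60.2, 57.6 and 38.03 FPKM (log2 change 1.56, SE 0.24, adjusted p = 0.00113). The immediate early genes Fos (3.17, 2.3 and 1.43 and 5.5, 4.27 and 3.39 FPKM), Egr1 (11.9, 13.6 and 9.49 and 12.6, 15.7 and 12.2 FPKM) and Nr4a1 did not pass, nor did Jun (adjusted p = 0.185, 0.628, 0.173 and 0.183), and Jun passed when WT IRI 49 was left out (0.0275). Developmental and repair factors rose in 12 of 16 and fell in 1. Sox9, a factor of tubular progenitors, went from 0.583, 0.359 and 0.357 to 5.9, 7.97 and 2.02 FPKM (log2 change 2.0, SE 0.43, adjusted p = 0.00517). Klf5 and Sox4 were likewise lowest in WT IRI 49 among the injured libraries, with 9.89, 13.1 and 3.7 and 58.9, 58.1 and 21.7 FPKM after injury against 0.377, 0.394 and 0.242 and 7.72, 7.59 and 8.09 in sham (2.75 and 2.29). The fall was Lhx1 (-1.10), a factor of early nephron formation.

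The AP-1 letters are the motif bound by the Fos and Jun family. Promoters of 2 tubular injury genes are shown, taken in list order from those with a match to these letters. They are RefSeq sequences of build GRCm38.p6, 250 bases before to 50 after the start site on the coding strand, in lower case with each match to TGANTCA (searched on both strands, N being any base) in capitals. Sprr1a lies at chr3:92485832-92486131 on the minus strand and S100a11 at chr3:93520246-93520545 on the plus strand.
Sprr1a: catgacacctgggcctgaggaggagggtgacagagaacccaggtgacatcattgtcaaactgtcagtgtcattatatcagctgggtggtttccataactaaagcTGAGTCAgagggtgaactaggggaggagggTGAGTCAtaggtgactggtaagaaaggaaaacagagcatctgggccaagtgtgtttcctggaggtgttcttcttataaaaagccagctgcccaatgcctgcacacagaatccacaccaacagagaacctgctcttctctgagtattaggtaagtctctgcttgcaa
S100a11: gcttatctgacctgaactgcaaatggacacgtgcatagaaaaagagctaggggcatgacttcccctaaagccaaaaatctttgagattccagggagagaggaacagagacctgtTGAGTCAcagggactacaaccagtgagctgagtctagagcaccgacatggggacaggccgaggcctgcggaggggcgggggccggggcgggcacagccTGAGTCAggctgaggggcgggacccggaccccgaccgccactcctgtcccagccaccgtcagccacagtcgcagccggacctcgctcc
Promoters could be matched for 8847 of the tested genes. TGANTCA was present in 6 of 22 tubular injury promoters (27.3%), in 3 of 11 of the NF-kB list (27.3%) and in 4.63% of all promoters. Among genes that rose 5.49% held it, and among those that fell 4.88%. A match is a description of the letters in this window and not a site of binding.

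Mitosis genes rose to a similar summed level in the 3 injured libraries. Of 34 mitosis genes 32 rose and none fell, with a median change of 3.32, and Ect2 and Spc25 did not pass. The summed level of the list was 40.8, 37.1 and 38.4 FPKM in sham and 737, 658 and 638 FPKM after injury, so the highest injured library was 1.16 times the lowest, against 1.55 times for tubular injury markers. Mki67, the proliferation marker Ki-67, went from 0.526, 0.456 and 0.546 to 21.9, 17.3 and 17.9 FPKM (log2 change 3.72, SE 0.17, adjusted p = 1.66e-06). Ube2c, the ubiquitin carrier of the anaphase-promoting complex, went from 3.13, 4.14 and 3.11 to 77.7, 79.8 and 88.99 FPKM (log2 change 4.23, SE 0.19, adjusted p = 1.66e-06). Cdk1, the kinase that drives entry into mitosis, went from 0.372, 0.283 and 0.256 to 25.4, 17.7 and 13.8 FPKM (log2 change 3.89, SE 0.29, adjusted p = 1.01e-05), and its partner Ccnb1 from 0.312, 0.433 and 0.244 to 15.3, 16.3 and 11.2 FPKM. WT IRI 49, the library nearest to sham on the first component, was the highest of the injured libraries for Ube2c and Ccnb2 (37.8, 45.3 and 49.9 FPKM, against 1.33, 0.774 and 0.716 in sham).

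DNA replication genes rose in 30 of 32 members, with a median of 1.89, and none fell. Rrm2, a subunit of ribonucleotide reductase, went from 3.34, 2.86 and 3.66 to 78.1, 65.9 and 65.9 FPKM (log2 change 4.05, SE 0.27, adjusted p = 4.57e-06). Tk1, thymidine kinase, went from 2.42, 2.98 and 3.06 to 41.3, 50.2 and 36.9 FPKM (log2 change 3.51, SE 0.30, adjusted p = 2.63e-05), and Pcna, the sliding clamp of DNA polymerases, from 27.7, 23.8 and 24.5 to 90.98, 88.3 and 75.97 FPKM (log2 change 1.71, SE 0.25, adjusted p = 0.000874). The groups did not overlap in any of these, and the summed level of the list ran from 506.7 to 580.9 FPKM after injury against 105.8 to 112.1 in sham. Tubulins, the subunits of microtubules, rose in 9 of 11 members, with Tubb5 going from 32.6, 26.4 and 29.1 to 199, 225 and 174 FPKM (log2 change 2.72, SE 0.25, adjusted p = 4.63e-05).

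The list of G1 control and the p53 response holds both brakes and drivers of the cell cycle, and of its 21 tested genes 9 rose and none fell. Cdkn1a, the inhibitor p21, went from 7.41, 7.34 and 8.45 to 127, 97.4 and 23.7 FPKM (log2 change 2.96, SE 0.50, adjusted p = 0.00171), with WT IRI 49 well below the others. Bbc3, the p53 target PUMA, went from 1.06, 1.05 and 1.01 to 7.01, 7.28 and 3.79 FPKM (log2 change 1.74, SE 0.23, adjusted p = 0.000421), and Myc from 4.41, 3.01 and 2.41 to 34.2, 28.3 and 13.8 FPKM (log2 change 2.56, SE 0.40, adjusted p = 0.00116). The D cyclin Ccnd1 stood at 73.3, 65.1 and 76.3 and 133, 88.2 and 94.4 FPKM and did not pass (adjusted p = 0.0763). Mdm2 varied within both groups, with 11.8, 12.4 and 1.004 FPKM in sham and 0.711, 16.2 and 0.448 FPKM after injury.

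Promoters of 3 mitosis genes are shown because this list shared letters that the choice of its members had not used. CHR is the cell cycle genes homology region (TTTGAA) and the CCAAT box (CCAAT) is bound by NF-Y; both were searched on both strands. In these RefSeq sequences (GRCm38.p6, 250 bases before to 50 after the start site, coding strand) capitals mark each match to either motif. Mki67 lies at chr7:135716330-135716629, Cdk1 at chr10:69352863-69353162 and Top2a, the mitotic DNA topoisomerase, at chr11:99024140-99024439, all on the minus strand.
Mki67: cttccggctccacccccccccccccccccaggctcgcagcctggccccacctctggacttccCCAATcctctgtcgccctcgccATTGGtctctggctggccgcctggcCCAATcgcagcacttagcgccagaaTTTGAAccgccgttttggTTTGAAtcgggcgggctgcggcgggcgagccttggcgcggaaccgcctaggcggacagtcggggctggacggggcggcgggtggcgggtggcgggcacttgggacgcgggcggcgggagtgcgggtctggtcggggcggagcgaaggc
Cdk1: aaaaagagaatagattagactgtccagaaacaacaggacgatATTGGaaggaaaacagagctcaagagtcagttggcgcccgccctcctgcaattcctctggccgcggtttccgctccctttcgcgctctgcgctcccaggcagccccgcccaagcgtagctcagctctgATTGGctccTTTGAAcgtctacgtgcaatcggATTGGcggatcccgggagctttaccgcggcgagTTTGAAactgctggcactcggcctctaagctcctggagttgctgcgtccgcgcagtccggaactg
Top2a: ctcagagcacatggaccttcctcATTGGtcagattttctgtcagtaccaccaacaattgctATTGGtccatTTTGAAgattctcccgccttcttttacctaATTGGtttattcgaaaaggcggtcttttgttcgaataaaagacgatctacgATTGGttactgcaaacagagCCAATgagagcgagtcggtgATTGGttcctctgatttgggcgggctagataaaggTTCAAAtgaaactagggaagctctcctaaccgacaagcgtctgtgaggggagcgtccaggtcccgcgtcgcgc
Both motifs were found together in 21 of 29 matched mitosis promoters (72.4%), in 2 of 25 DNA replication promoters (8%) and in 4.7% of all 8847 promoters. CHR, with or without a CCAAT box, was in 79.3%, 8% and 11.3% of these sets, and the CCAAT box in 82.8%, 56% and 38.6%. In 8 of all promoters a CHR match and a CCAAT match overlapped. The E2F letters GGCGGGAA were in 5 of 25 DNA replication promoters (20%), in 0 of 29 mitosis promoters and in 4.26% of all promoters. Over all genes that rose, 6.05% held CHR with a CCAAT box, and over those that fell 4.32%.

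Proximal tubule genes fell as a group. Of 27 tested markers found along the whole segment 20 fell and none rose, with a median of -1.21, and their summed level went from 18189, 17849 and 18178 FPKM to 5904, 6091 and 10719 FPKM. Lrp2, which encodes the endocytic receptor megalin, went from 169.7, 183 and 181 to 34.4, 39.4 and 77.7 FPKM (log2 change -1.89, SE 0.29, adjusted p = 0.00102), and its partner Cubn, cubilin, from 66.3, 66.4 and 71.4 to 8.32, 16.2 and 31.4 FPKM (log2 change -2.0, SE 0.36, adjusted p = 0.00221). Slc34a1, the main phosphate transporter, reached 438, 679 and 1011 FPKM after injury (log2 change -1.37, SE 0.29, adjusted p = 0.0049). In each, WT IRI 49 was the highest injured library and still lay below every sham library. The transcription factor Hnf4a, which sustains proximal tubule identity, changed less, from 185, 189 and 194 to 80.6, 112 and 125 FPKM (log2 change -0.86, SE 0.18, adjusted p = 0.00504).

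Markers of both the early and the straight part of the proximal tubule fell. Early segment markers fell in 9 of 10, with a median of -1.43. Slc5a2, the glucose transporter SGLT2 of the early segments, went from 249, 237 and 259 to 124, 152 and 109 FPKM (log2 change -0.96, SE 0.17, adjusted p = 0.00202), and Slc7a7, a basolateral amino acid exchanger, from 163, 163 and 166 to 39.6, 58.5 and 58.7 FPKM (log2 change -1.65, SE 0.28, adjusted p = 0.0017). The groups did not overlap, and WT IRI 49 was the lowest injured library for Slc5a2. Straight segment markers fell in 8 of 11, with a median of -1.49, but leaving out WT IRI 13 left 4 falls, and leaving out WT IRI 24 or WT sham 2 left 5. Their summed level was 1811, 2149 and 1897 FPKM in sham and 329.9, 275 and 889 FPKM after injury, so the highest injured library was 3.23 times the lowest, against 1.46 times for the early markers. Besides Slc22a7 and Slc22a19, Slc5a10 fell, from 121, 126 and 152 to 32.7, 16.96 and 51.4 FPKM (log2 change -2.07, SE 0.35, adjusted p = 0.00167). Slc7a13, another straight segment marker, did not reach the level for testing. It stood at 0.52, 0.57 and 0.52 FPKM in sham and 0.58, 0.08 and 11.29 FPKM after injury, so WT IRI 49 lay far above sham. Whether the early and straight lists differed in their change was not tested.

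Amino acid catabolism was the metabolic list with the largest share lowered. Of 31 tested members 25 fell and none rose, with a median of -1.35. Mut, the mitochondrial methylmalonyl-CoA mutase, went from 68.9, 74.04 and 70.9 to 12.9, 16.6 and 28.2 FPKM (log2 change -1.91, SE 0.27, adjusted p = 0.000652), and Aass, the first enzyme of lysine breakdown, from 83.7, 88.7 and 85.3 to 25.4, 22.3 and 36.4 FPKM (log2 change -1.61, SE 0.23, adjusted p = 0.000725). Injured libraries lay below sham without overlap in both. Of 14 genes of NAD synthesis and the kynurenine path 5 fell and 1 rose, and 8 fell without WT IRI 49. Kmo, kynurenine monooxygenase, was even after injury, with 45.4, 43.5 and 41.6 FPKM in sham and 12.9, 14.5 and 14.6 FPKM after injury (log2 change -1.57, SE 0.17, adjusted p = 0.000145). The rise was Nnmt, which methylates nicotinamide, from 0.162, 0.662 and 0.124 to 9.2, 3.25 and 2.44 FPKM (log2 change 2.03, SE 0.36, adjusted p = 0.00207).

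Fatty acid oxidation and peroxisome genes fell in 17 of 32 members and rose in none, with a median of -0.70. Ehhadh, the peroxisomal bifunctional enzyme, went from 264, 258 and 287 to 52.5, 51.5 and 65.02 FPKM (log2 change -2.24, SE 0.22, adjusted p = 7.44e-05), and Acadm, a mitochondrial dehydrogenase of medium-chain acyl-CoA, from 605, 531 and 597 to 125, 92.1 and 213 FPKM (log2 change -2.09, SE 0.33, adjusted p = 0.00128). The carnitine transferase Cpt1a, which admits fatty acids to mitochondria, went from 102, 107 and 120.2 to 52.96, 71.3 and 63.9 FPKM (log2 change -0.80, SE 0.18, adjusted p = 0.00662). Groups were separate in all 3. Gluconeogenesis and fructose genes fell in 9 of 12 and rose in 1. Fbp1, fructose bisphosphatase, went from 761, 643 and 722 to 129, 175 and 343 FPKM (log2 change -1.83, SE 0.34, adjusted p = 0.00269), and Pcx, pyruvate carboxylase, from 177, 159.6 and 185 to 48.8, 41.5 and 69.3 FPKM (log2 change -1.72, SE 0.28, adjusted p = 0.00149; 0.363 from its highest transcript alone), whereas Pck2, the mitochondrial phosphoenolpyruvate carboxykinase, rose (0.94). The cytosolic form Pck1 stood at 844, 725 and 1058 and 870.1, 395 and 413 FPKM and did not pass (adjusted p = 0.108), but passed without WT IRI 13 (0.0213), the injured library with the highest value.

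Of 16 glycolysis genes tested 5 rose and 1 fell, where 25.5% rose and 12.3% fell over all genes. The list median of 0.16 was near the 0.12 over all genes. It was 0.07 after quantile normalization and after trimmed-mean scaling, where all genes had -0.03 and 0.04. The list as a whole thus stayed near the background. The fall (Pfkm) was lost when WT IRI 13, WT IRI 24, WT sham 2 or else WT sham 3 was omitted, and 6 genes rose and 4 fell when WT IRI 49 was omitted. Hk2, the hexokinase of growing cells, was low in sham at 0.13, 0.111 and 0.123 FPKM and reached 3.12, 1.98 and 1.46 FPKM after injury (log2 change 1.47, SE 0.25, adjusted p = 0.00171). Pkm, pyruvate kinase, went from 142, 146 and 134 to 356, 206 and 287 FPKM (log2 change 0.97, SE 0.18, adjusted p = 0.00249). The serine synthesis enzyme Phgdh, counted with the integrated stress response, went from 15.9, 13.4 and 15.8 to 166, 112 and 61.8 FPKM (log2 change 2.73, SE 0.36, adjusted p = 0.000472), highest in WT IRI 13.

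Solute carriers, the membrane transporters named Slc, fell in 101 of 239 tested members and rose in 23, with a median of -0.48. Together they summed to 13641, 13549 and 13910.0 FPKM in sham and 6378, 6699.6 and 9521 FPKM after injury. Among the rises, Slc25a24, a mitochondrial ATP-magnesium carrier, went from 1.41, 1.26 and 1.36 to 14.02, 14.8 and 10.7 FPKM (log2 change 2.58, SE 0.29, adjusted p = 0.00019), Slc7a5, the large neutral amino acid transporter LAT1, from 1.4, 1.82 and 1.69 to 8.14, 7.53 and 4.39 FPKM (log2 change 1.51, SE 0.27, adjusted p = 0.00223) and the potassium-chloride cotransporter Slc12a4 from 6.34, 6.12 and 6.4 to 28.1, 14.96 and 12.7 FPKM (log2 change 1.35, SE 0.26, adjusted p = 0.00302; 0.542 from its highest transcript alone). These 3 were low in sham next to the transporters that fell. The HNF4 letters CAAAGTCCA (searched on both strands) were in 1 of 167 solute carrier promoters (0.599%), near the 0.452% of all promoters. In smaller lists the same letters were in 2 of 22 proximal tubule promoters (9.09%) and 2 of 28 of amino acid catabolism (7.14%). For fatty acid oxidation it was 0 of 25, and for cytosolic ribosomal proteins, which rose, 2 of 57 (3.51%). Over all genes that fell 1.22% held them, and over those that rose 0.566% (13 promoters each, against 40 of all).

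The segments beyond the proximal tubule were counted apart. Thick ascending limb markers fell in 4 of 13, or in 2 where each gene was represented by its highest transcript. Egf, the growth factor precursor made there, went from 451, 469 and 464 to 20.4, 10.8 and 148 FPKM (log2 change -3.79, SE 0.99, adjusted p = 0.013), and the calcium-sensing receptor Casr from 9.99, 10.8 and 11.5 to 1.54, 2.88 and 4.42 FPKM (log2 change -1.64, SE 0.29, adjusted p = 0.00205; 0.056 from its highest transcript alone), while Umod, uromodulin, stood at 998, 997 and 1012 and 693, 895 and 1149.8 FPKM (adjusted p = 0.702). Umod was thus below sham in WT IRI 13 and 24 and above it in WT IRI 49. Distal convoluted tubule markers fell in 8 of 10, but leaving out WT IRI 13 or WT IRI 24 left 3 falls and leaving out WT sham 3 left 5, and 9 fell and 1 rose when WT IRI 49 was omitted. Slc8a1, the sodium-calcium exchanger, passed in each of these, from 11.3, 10.8 and 11.99 to 0.758, 1.12 and 3.69 FPKM (log2 change -2.25, SE 0.40, adjusted p = 0.00209). The thiazide-sensitive cotransporter Slc12a3 stood at 276, 238 and 309 and 93.6, 92.2 and 234 FPKM, and its fall of -1.10 did not pass without WT IRI 13 (adjusted p = 0.0585), WT IRI 24 (0.0533) or WT sham 3 (0.054), or with the 6 WT libraries fitted alone (0.0623).

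Of 12 tested collecting duct principal cell markers 3 rose and none fell, with a list median of 0.01. The share raised was near the 25.5% over all genes. Without WT IRI 24, or from the highest transcript per gene, 2 rose and 1 fell. Aqp2, the vasopressin-regulated water channel, went from 103, 119.9 and 98.97 to 419, 364 and 228 FPKM (log2 change 1.60, SE 0.29, adjusted p = 0.00246), and Fxyd4, a regulator of the sodium pump, from 26.2, 31.4 and 27.4 to 96.2, 120.0 and 54.4 FPKM (log2 change 1.57, SE 0.37, adjusted p = 0.0087; 0.217 from its highest transcript alone). The basolateral water channel Aqp3 stood at 55.7, 53.5 and 55.9 and 51.6, 56.3 and 46.5 FPKM and the sodium channel subunit Scnn1b at 33.7, 33.1 and 35.3 and 22.1, 39.3 and 37.04 FPKM, neither of which passed (adjusted p = 0.758 and 0.759). The third rise, Gata3 (0.55), did not pass without WT IRI 24, WT sham 2 or WT sham 3 (adjusted p = 0.0779, 0.0817 and 0.07). Intercalated cell markers fell in 3 of 12, but leaving out WT IRI 13, WT sham 2 or WT sham 3 left 0 falls and leaving out WT sham 1 left 1. Foxi1, the factor that specifies these cells, stood at 17.9, 17.6 and 14.5 and 13.2, 35.5 and 18.9 FPKM (adjusted p = 0.416).

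**Figure D3:**
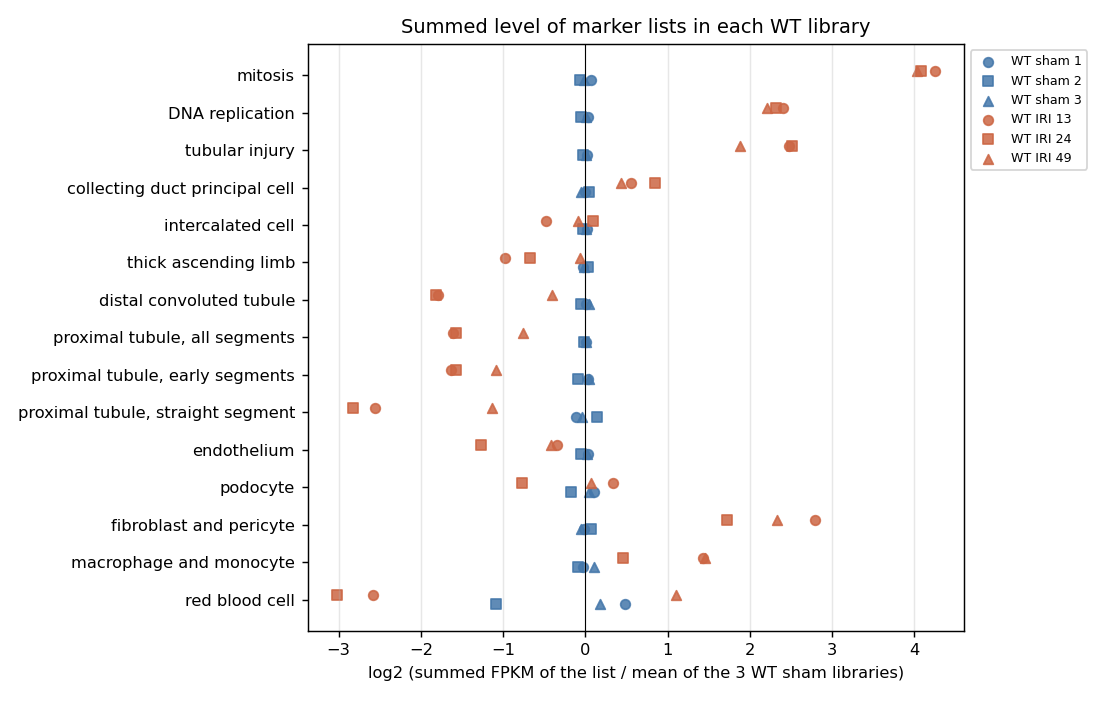
Summed FPKM of each marker list in each WT library, as log2 of the ratio to the mean of the 3 WT sham libraries (blue, sham; orange, IRI; marker shape, library). Mitosis and DNA replication sums are close together in the 3 injured libraries, while proximal and distal convoluted tubule sums are nearer to sham in WT IRI 49 and the red blood cell sum lies above sham there and below it in WT IRI 13 and 24.

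Glomerular and vascular markers were counted next, and both counts moved with the library left out. Podocyte markers fell in 3 of 12 and rose in 1. The podocyte rise (Nes) was lost without WT IRI 13 or any 1 sham library, 2 markers fell when WT sham 1 or 2 was omitted, 2 fell and 3 rose when WT IRI 24 was omitted, and 5 fell when WT IRI 49 was omitted. Endothelial markers fell in 5 of 15 and rose in none, in 3 without any 1 sham library and in 2 without WT IRI 24, while 1 rose without WT IRI 49. Kdr, the VEGF receptor, went from 12.1, 11.9 and 12.4 to 3.64, 1.61 and 5.005 FPKM (log2 change -1.65, SE 0.30, adjusted p = 0.00226) and Esm1, endocan, from 18.6, 17.3 and 14.9 to 4.02, 1.53 and 4.3 FPKM (log2 change -2.14, SE 0.36, adjusted p = 0.00158). Both were lowest in WT IRI 24. Hemoglobin transcripts, carried by red blood cells, were uneven, with Hba-a1 at 100.3, 28.1 and 78.7 FPKM in sham and 8.58, 6.56 and 145 FPKM after injury, so that WT IRI 49 lay above every sham library and WT IRI 13 and 24 below. Hba-a1 shares reads with a near-identical copy. Of 5 red blood cell markers 1 fell, Slc4a1, which is also counted among the intercalated cell markers, and no hemoglobin gene passed. In the same list 4 fell without WT IRI 49, where Hba-a1 changed by -2.86. None fell when WT IRI 13, WT IRI 24, WT sham 2 or else WT sham 3 was omitted.

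Most tested genes of the NF-kB, cytokine and IL-6 lists rose. Of 15 NF-kB pathway genes 12 rose and none fell, with a median of 1.29. Relb and Nfkb2, the subunits of the noncanonical arm, went from 0.747, 2.2 and 1.73 to 11.7, 15.8 and 7.65 FPKM (log2 change 2.31, SE 0.26, adjusted p = 0.000186; 0.137 from its highest transcript alone) and from 7.64, 7.08 and 8.5 to 33.7, 33.4 and 22.7 FPKM (log2 change 1.80, SE 0.21, adjusted p = 0.000223). Of 17 cytokines and chemokines 11 rose and none fell, or 1 fell without WT IRI 49. Cxcl1, a neutrophil attractant, went from 1.36, 2.44 and 1.37 to 25.7, 28.2 and 16.4 FPKM (log2 change 3.15, SE 0.53, adjusted p = 0.00163). Ccl20 was listed at 0 in WT sham 2 and 3 and reached the same level in all injured libraries, with 0.0825, 0 and 0 and 5.66, 5.41 and 5.77 FPKM (log2 change 2.69, SE 0.28, adjusted p = 0.000118). Csf1, the macrophage growth factor, went from 3.23, 2.82 and 2.65 to 23.9, 15.97 and 14.9 FPKM (log2 change 2.28, SE 0.24, adjusted p = 0.000137). In the IL-6 family 6 of 9 genes rose and 1 fell, with Osmr, the oncostatin M receptor, nearly equal in the injured libraries at 6.53, 6.65 and 6.2 FPKM against 1.03, 1.17 and 0.97 in sham (log2 change 1.86, SE 0.15, adjusted p = 1.73e-05), and the feedback inhibitor Socs3 at 30.2, 23.4 and 16.9 against 1.13, 0.874 and 1.78 (log2 change 3.42, SE 0.35, adjusted p = 0.000105).

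Interferon-induced genes rose in 9 of 19 and fell in 2, or 7 and 1 without WT IRI 24. Ifi27 went from 41.9, 39.4 and 42.4 to 109, 89.9 and 70.6 FPKM (log2 change 1.08, SE 0.19, adjusted p = 0.0021). Of 6 MHC class II genes, which serve antigen presentation, 1 rose and 1 fell, with a median of -0.53. The rise was H2-DMa (0.72; lost without WT sham 2) and the fall Cd74 (-0.92), which did not pass without WT IRI 13, WT IRI 24 or any 1 sham library, after quantile normalization or from its highest transcript alone, and 3 genes fell without WT IRI 49. Genes of cell death rose in 11 of 18 and fell in none. Mlkl, the executor of necroptosis, went from 1.004, 0.675 and 0.837 to 6.7, 4.89 and 5.09 FPKM (log2 change 1.83, SE 0.17, adjusted p = 5.35e-05), Bak1, a pore former of apoptosis, from 8.76, 8.57 and 8.97 to 18.98, 27.7 and 26.5 FPKM (log2 change 1.36, SE 0.20, adjusted p = 0.000908), and Bcl2l1, the apoptosis inhibitor Bcl-xL, from 25.3, 28.1 and 30.9 to 86.97, 90.3 and 64.3 FPKM (log2 change 1.48, SE 0.19, adjusted p = 0.000456). Genes that promote and genes that inhibit apoptosis thus rose in the same libraries.

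Leukocyte markers gave a mixed count. Of 16 tested macrophage and monocyte markers 6 rose and none fell, but 10 rose without WT IRI 24 and 2 fell without WT IRI 49. Cd14, a lipopolysaccharide co-receptor, went from 4.31, 4.33 and 7.43 to 50.6, 37.1 and 24.02 FPKM (log2 change 2.56, SE 0.26, adjusted p = 0.000102), and Cd68, a lysosomal protein, from 3.01, 3.22 and 4.17 to 7.23, 11.3 and 12.5 FPKM (log2 change 1.32, SE 0.29, adjusted p = 0.00612). The defining markers Adgre1 (F4/80; 1.48, 1.46 and 1.35 and 1.01, 0.408 and 2.73 FPKM) and Csf1r (14.1, 18.5 and 15.5 and 8.12, 4.89 and 17.8 FPKM) did not pass (adjusted p = 0.713 and 0.213), though both passed as falls without WT IRI 49 (0.0484 and 0.0435). Both were lower than sham in WT IRI 13 and 24 and higher than the sham median in WT IRI 49. The summed level of the list was 133, 128 and 147 FPKM in sham and 367, 187 and 372 FPKM after injury. Only 3 of 13 neutrophil markers reached the level for testing, and all 3 rose. The whole list summed to 1.52, 1.83 and 4.81 FPKM in sham, so its members could reach that level mainly through the injured libraries. The count of rises was therefore close to fixed by the filter, and no conclusion is drawn from it. S100a9 went from 0.227, 0.523 and 1.39 to 7.7, 5.14 and 7.21 FPKM (log2 change 2.21, SE 0.32, adjusted p = 0.000833). The rise of S100a8 (1.60) was lost on leaving out WT IRI 13 (adjusted p = 0.088) or sham 1 (0.0827) or 2 (0.0735). No B cell marker and 1 of 12 T and NK cell markers reached that level.

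Stromal and matrix genes rose, least in WT IRI 24. Of 14 tested fibroblast and pericyte markers 7 rose and none fell, with a median of 1.15. Col1a1, the main chain of fibrillar collagen I, went from 3.08, 3.91 and 3.67 to 121, 29.1 and 88.3 FPKM (log2 change 3.93, SE 0.46, adjusted p = 0.000253), and Col3a1 from 3.73, 4.53 and 4.61 to 92.7, 26.2 and 97.8 FPKM (log2 change 3.58, SE 0.42, adjusted p = 0.000244). Acta2, smooth muscle actin, went from 23.3, 23.1 and 20.5 to 73.1, 49.8 and 81.8 FPKM (log2 change 1.54, SE 0.30, adjusted p = 0.0031). All 3 were lowest in WT IRI 24 among the injured libraries, and so was the summed list, at 834, 396 and 606 FPKM against 119, 126 and 116 in sham. Vim, vimentin, which injured tubular cells also express, followed another order, with 270.4, 168 and 85.1 FPKM after injury against 15.3, 16.1 and 14.03 in sham (log2 change 3.29, SE 0.34, adjusted p = 0.000118). The receptors Pdgfrb (5.01, 6.22 and 5.66 and 16.4, 4.53 and 15.004 FPKM) and Pdgfra did not pass (adjusted p = 0.124 and 0.0603), but did without WT IRI 24 (0.00536 and 0.0162).

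Collagens rose in 11 of 20 and fell in 1, or 8 and 2 without WT IRI 49. The fall was Col4a3, a chain of the glomerular basement membrane, from 38.02, 43.1 and 41.9 to 17.6, 20.9 and 19.6 FPKM (log2 change -1.05, SE 0.17, adjusted p = 0.00124). Enzymes and inhibitors of matrix turnover rose in 8 of 13 and fell in 1. Timp1 and Timp3, both inhibitors of metalloproteinases, moved in opposite directions, Timp1 from 0.993, 1.13 and 1.25 to 79.7, 28.3 and 35.8 FPKM (log2 change 4.38, SE 0.50, adjusted p = 0.000206) and Timp3 from 482, 543 and 514 to 126, 137 and 210.4 FPKM (log2 change -1.73, SE 0.20, adjusted p = 0.000218). Tgfb1, the fibrogenic growth factor, went from 7.68, 9.22 and 7.61 to 28.4, 20.8 and 23.6 FPKM (log2 change 1.45, SE 0.18, adjusted p = 0.000369).

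Cytosolic ribosomal protein genes rose in 72 of 81 members and fell in none, with a median of 0.82. Together they made up 4.96% of the summed values in sham and 8.75% after injury, at 20340.1, 19258 and 19052 and 37225, 36818 and 30430.0 FPKM. Rplp1, of the ribosomal stalk, went from 549, 494 and 501 to 1215, 1119.7 and 857 FPKM (log2 change 1.03, SE 0.15, adjusted p = 0.000816), and Rpl22l1, a paralog of Rpl22, from 39.3, 34.2 and 33.6 to 124, 116 and 89.5 FPKM (log2 change 1.58, SE 0.22, adjusted p = 0.000652). After quantile normalization 67 rose and after trimmed-mean scaling 69. Ribosome biogenesis genes rose in 15 of 23, but in 6 without WT IRI 13, 7 without WT sham 2 and 8 without WT sham 3. Nop56, a core protein of small nucleolar RNA complexes, went from 11.99, 8.32 and 9.51 to 71.6, 37.3 and 31.8 FPKM (log2 change 2.05, SE 0.32, adjusted p = 0.00116). Translation factors rose in 11 of 16, or 6 without WT sham 3.

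Transcript length moved with the changes. When the tested genes were divided into 5 equal bins by transcript length, the median change in bin 1, the shortest, was 0.30, with 34.9% raised and 7.8% lowered, and in bin 5, the longest, it was 0.02, with 16.5% and 13.6%. Of the 81 ribosomal protein genes 70 lay in bin 1. In the other 2346 genes of that bin 33.2% rose and 8.06% fell, with a median of 0.28. Bin 1 also held 61 of the 74 nuclear genes of oxidative phosphorylation, a list in which 1 rose and 6 fell (median -0.10). It held 47 of 76 mitochondrial ribosomal proteins, of which list 19 rose and 3 fell, and 21 of 37 proteasome subunits, of which list 16 rose and none fell. The part of transcript length in the ribosomal protein counts was not tested. After quantile normalization the medians of bins 1 and 5 were 0.19 and -0.16.

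**Figure D4:**
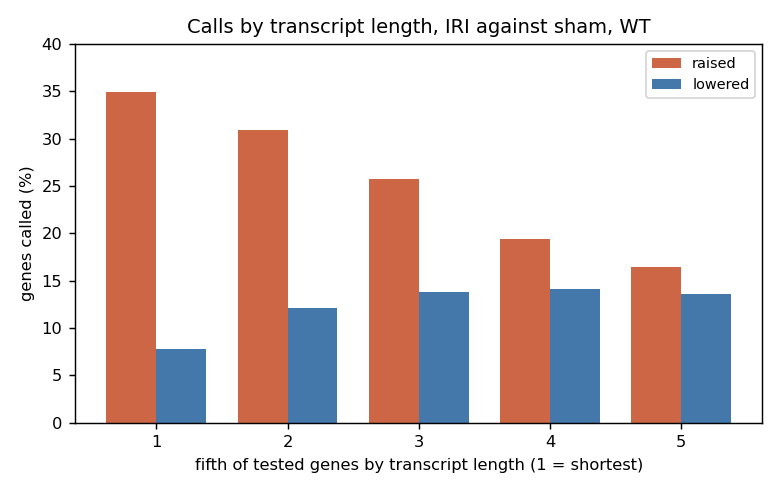
Percentage of genes raised (orange) and lowered (blue) after IRI in each of 5 equal bins of the tested genes by transcript length. The share raised goes from 34.9% in bin 1 (shortest) to 16.5% in bin 5 (longest), and the share lowered from 7.8% to 13.6%.

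Mitochondrial genes were counted in 3 lists. Mitochondrial ribosomal proteins rose in 19 of 76 and fell in 3, with a median of 0.18. The share raised was thus near the 25.5% over all genes, whose median was 0.12. The number raised was 4, 5, 6 or 11 without WT sham 2, WT sham 3, WT IRI 13 or WT sham 1, and 12 with the 6 WT libraries fitted alone, while 7 fell without WT IRI 49 and 1 without any 1 sham library. Quantile normalization gave 11 raised and 10 lowered, and trimmed-mean scaling 10 and 7. Of 74 nuclear genes of oxidative phosphorylation 6 fell and 1 rose, with a median of -0.10; 12 fell without WT IRI 49, 3 rose without WT IRI 24, and none rose without WT IRI 13 or any 1 sham library. Ndufs1, the largest subunit of complex I, went from 98.02, 91.4 and 99.5 to 26.9, 27.5 and 44.4 FPKM (log2 change -1.56, SE 0.25, adjusted p = 0.00135), Sdha, the catalytic subunit of complex II, from 297, 292 and 296 to 121, 124 and 187 FPKM (log2 change -1.06, SE 0.21, adjusted p = 0.00379) and Atp5b, the catalytic subunit of ATP synthase, from 939, 924 and 935 to 316, 436 and 605 FPKM (log2 change -1.09, SE 0.24, adjusted p = 0.00578). The groups did not overlap in these 3, although the list sum did, at 19089, 18309 and 17929 FPKM in sham and 19113, 15183 and 19089.5 FPKM after injury. Of 13 protein genes of the mitochondrial genome 1 fell (mt-Nd6, -0.63), a call lost on leaving out WT IRI 24 (adjusted p = 0.137) or sham 1 (0.0748), 2 (0.146) or 3 (0.06), while 7 others fell when WT IRI 24 was omitted. mt-Co1, of complex IV, stood at 6445, 6661 and 6439 and 2781, 6262 and 5400.2 FPKM, lowest in WT IRI 13, and passed only without WT IRI 24 among the libraries left out (0.0396).

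The targeted gene of the series, Gpx3 (chr11:54902453-54910377 in GRCm38, plus strand), was the most abundant nuclear gene in sham. It measured 5664, 4476 and 5371 FPKM in sham and 2788, 3568 and 1075 FPKM after injury (log2 change -1.22, SE 0.36, adjusted p = 0.0219), so WT IRI 49 held the least. The fall was lost on leaving out WT sham 1 (adjusted p = 0.0673) or WT sham 3 (0.0629), when the 6 WT libraries were fitted alone (0.077) or after quantile normalization (0.0719). In the CKO libraries, for comparison, it stood at 2501, 3037 and 3299 FPKM in sham and 3723, 3025 and 2779 FPKM after injury. All CKO sham values lay below all WT sham values, whereas after injury the genotype labels overlapped. Among other antioxidant genes Cat, catalase, went from 361, 377 and 364 to 134, 163 and 226 FPKM (log2 change -1.11, SE 0.20, adjusted p = 0.00216) and Sod2, the mitochondrial superoxide dismutase, from 90.6, 92.05 and 87.6 to 42.2, 42.2 and 60.8 FPKM (log2 change -0.90, SE 0.16, adjusted p = 0.00186). The glutathione synthesis gene Gclc (173, 158 and 162 and 109.8, 99.8 and 109 FPKM) and the NRF2 target Nqo1 (26.2, 25.6 and 22.7 and 35.2, 28.1 and 44.5 FPKM) did not pass (adjusted p = 0.0784 and 0.127), Gclc passing with the 6 WT libraries fitted alone (0.0082). Of 19 glutathione and NRF2 genes 3 rose and 3 fell, or 5 and 3 without WT IRI 49. Over all genes 25.5% rose and 12.3% fell. Changes in the list ran from -1.22 to 4.54, so it also held a rise far larger than any fall.

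The most abundant transcripts changed places. The 10 highest genes of each library, mitochondrial genes included, took 10.3%, 10.7% and 10.5% of the summed values in sham and 6.1%, 10.4% and 8.0% after injury. Kap, the androgen-regulated kidney protein, went from 4195, 4485 and 4115 to 483, 286 and 2274 FPKM (log2 change -2.65, SE 0.69, adjusted p = 0.0129) and the protease Napsa from 1301, 1487 and 1301 to 143, 79.1 and 567 FPKM (log2 change -2.86, SE 0.68, adjusted p = 0.00838). The iron storage subunit Fth1 (2224, 2180.1 and 2116 and 3167, 2625 and 2546 FPKM) did not pass (adjusted p = 0.0574). It passed as a rise without WT IRI 49 (0.0383), with array weights (0.0277) and with the 5 FPKM filter (0.0406). It also passed without the mean-variance trend (0.0441) and after quantile normalization (0.0499). The kallikrein Klk1 (2151, 2062 and 2209 and 1574, 1799 and 1809 FPKM) did not pass (0.114).

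The injury change in WT was set against that in CKO by a test of the difference itself. Of 12064 genes 2 passed, and 2212 had an unadjusted p under 0.05. Pofut2, which adds fucose to secreted proteins, was at 19.8, 20.5 and 20.4 FPKM in sham and 26.9, 30.7 and 30.2 FPKM after injury in WT kidneys, a change of 0.51, against a change of -1.18 in CKO (difference 1.69, adjusted p = 0.00186). Tmem67, a protein of the primary cilium, was at 2.56, 2.51 and 2.58 FPKM in sham WT kidneys and was listed at 0 in WT IRI 13 and 24 and at 0.0918 FPKM in WT IRI 49, a change of -1.79, against -0.13 in CKO (difference -1.66, adjusted p = 0.00238). Without WT IRI 24 10 genes passed, and without WT IRI 49 572, while Pofut2 and Tmem67 passed in both fits and in each fit without another WT library.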

How the data were processed

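RNA of 12 mouse renal cortex libraries in 4 groups of 3 was sequenced, and the 6 WT libraries were compared. The submitters' processing notes name cutadapt, HISAT2 (version 2.1.0) and StringTie, in no stated order. The notes give the human build GRCh38, although the transcript identifiers are mouse, and strand settings and depth were not given in the sources used here. The authors deposited 1 table of 25790 transcripts by library, read here as FPKM. Its header names no unit; TPM, another StringTie output, would differ by 1 factor per library. In every row the mean of at least 1 group was 0.5 or more, so lower transcripts were not analysed here. Low values were whole multiples of a step for only 26.6% to 42.5% of those checked (within 0.1 of a whole number, where an even spread gives 20.0%), so reads were not recovered and no count test was run.

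Identifiers were matched without version to GENCODE M21 (GRCm38), with 25740 matches. The 50 others held at most 0.103% of a library and were left out. Transcripts were summed to 13465 genes, and 12064 genes with at least 1 FPKM in 3 WT libraries were kept. Near-identical copies, such as the hemoglobin, Sprr2 and Cyp2a genes, and overlapping genes may share reads. A linear model (limma 3.58.1, run in R 4.3.3) of log2(FPKM + 1) over all 12 libraries was fitted with 1 mean per group and a mean-variance trend, since the 4 groups then share 1 estimate of spread. Adjustment was by Benjamini-Hochberg over all genes tested, and the difference between the injury changes of WT and CKO was tested in the same fit. In simulated data with 200 of 12064 genes changed, log2 changes of 0.5, 1, 2 and 3 gave calls for 10%, 72%, 100% and 100% of the 50 genes of each size, with 22 false among 163 calls (13.5%). Fitting the 6 WT libraries alone gave 12%, 48%, 98% and 98%, with 10 false among 138 calls (7.2%). Both false shares lay above the 0.05 set for adjusted p, and that of the fit used here lay further above it. The simulation changed 200 genes, whereas the data gave 3072 raised and 1479 lowered, so these shares need not hold for the data.

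The members and the 66 gene lists were chosen with earlier results of these data known. Named genes were the 10 largest rises and falls without overlap between groups, the first 4 tested members and the 3 smallest p-values of each list (for lists defined by name, the 3 largest rises and falls and the 3 highest in sham), Gpx3, the 10 highest genes of each group, and the genes with the smallest interaction p. Ect2, Spc25, Nr4a1, Lhx1, Pfkm and Pck2 were named after their values were seen, as the exceptions in a count. Some genes that this rule names are not reported here. Promoters (RefSeq, GRCm38.p6) were matched by symbol to 8847 genes, and 643 that lay over 500 bases from the annotated start were left out. Alternatives covered the pseudocount, the filter, scaling, the fit, the transcript used and each WT library left out.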

Additional observations from a re-analysis of the deposited data

Results flagged for a closer look

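The injury change in WT differed from that in CKO, by the interaction test, for Pofut2 and Tmem67. For Pofut2 the difference was 1.69 (log2), with 23.3, 21.9 and 21.4 FPKM in CKO sham and 8.75, 9.09 and 9.96 FPKM in CKO IRI, so the CKO libraries were lower after injury and the WT libraries higher. For Tmem67 the difference was -1.66, with 2.49, 2.66 and 2.52 FPKM in CKO sham and 2.40, 2.23 and 2.15 FPKM in CKO IRI, against values at or near 0 in WT IRI.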

How the results depend on the processing

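The numbers raised and lowered stayed within 1.5 times of 3072 and 1479 under every change of pseudocount, filter, scaling, fit or transcript. With 1 WT library left out, 2183 to 3248 genes rose and 920 to 1907 fell. The difference between the injury changes of WT and CKO passed for 2 genes, and for 987 with array weights, 7 from the highest transcript per gene, 1 with the 5 FPKM filter (which leaves fewer genes to test), and 2 to 572 with 1 WT library left out; the cause was not tested. From the highest transcript per gene Atp6v0a4 changed by 0.21, Ldha by -1.96 and Mrpl1 by 1.09, opposite to their sums, none past the threshold. Of 284 named genes called, 217 kept the call in every setting run and 67 lost it in at least 1. No paired analysis was possible because the WT sham and WT IRI libraries share no replicate number. Read depth is unknown, so counting error could not be given for low values.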

Other observations

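Several gene groups outside the comparisons above also changed. Klotho (Kl), the co-receptor of the phosphate hormone FGF23, went from 190.0, 191 and 202 to 17.9, 33.1 and 94.8 FPKM (log2 change -2.31, SE 0.49, adjusted p = 0.005), the angiotensin-converting enzyme Ace from 56.2, 74.8 and 62.8 to 3.65, 3.98 and 18.5 FPKM (log2 change -3.09, SE 0.52, adjusted p = 0.00169) and the phosphate transporter Slc34a3 from 43.7, 41.1 and 50.4 to 3.39, 9.97 and 11.8 FPKM (log2 change -2.43, SE 0.46, adjusted p = 0.00295). In each WT IRI 13 was the lowest library. Of 13 tested genes of renin, vitamin D and klotho 6 fell and none rose. Of 17 circadian clock genes 6 fell and 4 rose, against 12.3% lowered and 25.5% raised over all genes, so the share raised was near that background. The repressor Nr1d1 went from 48.1, 53.9 and 51.2 to 11.7, 11.1 and 24.9 FPKM (log2 change -1.71, SE 0.24, adjusted p = 0.000661) and the output factor Hlf from 22.6, 23.2 and 26.2 to 6.36, 6.67 and 7.73 FPKM (log2 change -1.66, SE 0.25, adjusted p = 0.001), and the labels used here state no hour of collection.

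The metallothioneins Mt1 and Mt2, which bind zinc and copper, went from 166, 177 and 201 to 945, 680.1 and 299.8 FPKM (log2 change 1.67, SE 0.34, adjusted p = 0.00433) and from 65.3, 68.9 and 84.4 to 660.3, 616 and 183 FPKM (log2 change 2.52, SE 0.45, adjusted p = 0.00213). Their order among the injured libraries followed the first principal component, highest in WT IRI 13. The small heat shock protein Hspb1 kept that order, from 19.01, 20.4 and 16.9 to 209.6, 173 and 76.6 FPKM (log2 change 2.84, SE 0.32, adjusted p = 0.0002). Diamine oxidase (Aoc1), which breaks down histamine, went from 0.977, 1.24 and 1.6 to 8.46, 18.3 and 13.8 FPKM (log2 change 2.62, SE 0.38, adjusted p = 0.000833), opposite in direction to Hdc. Of 6 genes known to be higher in female mouse kidney 5 fell, or 3 without WT IRI 13 or WT IRI 24. Among them Prlr, the prolactin receptor, went from 60.6, 65.7 and 72.01 to 3.15, 0.201 and 15.5 FPKM (log2 change -3.95, SE 0.72, adjusted p = 0.00249). Of 5 tested genes known to be higher in male mouse kidney 2 fell and none rose, namely Kap and the transporter Slc22a30 (-1.33). Slc22a30 did not pass without WT IRI 13, WT IRI 24 or any 1 sham library, with the 6 WT libraries fitted alone or from its highest transcript. The labels used here state no sex, and none was inferred.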
